A study of Mus musculus with 18 samples.

Results

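The NK lectin-like receptors of the Klr family are surface proteins with a C-type lectin-like domain, and most of their genes lie together in the natural killer gene complex of mouse chromosome 6. This account covers 9 of them: Klra1, Klra8, Klra9, Klra10, Klra16, Klre1, Klrd1, Klrk1 and Klrc1. A gene was taken through every array probe that carries its name in the scanner files. That rule found 8 of the 9 genes with 10 probes, among 25888 names and 43426 non-control probes on the array, since no probe carries the name Klra1. Klre1 and Klrk1 have 2 probes each and are given first by the brighter one. The 9 names were picked with their levels on these same arrays known, so the differences of the members between groups are given as a description, without a test.

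C57BL/6 mice were given anti-DLL4 or isotype control antibody, and their thymus cells were taken 2 weeks later. DLL4 is the Notch ligand that thymic epithelium shows to incoming progenitors, and Notch signalling through it commits them to the T lineage. The 18 arrays, 1 per sample, hold anti-DLL4 total thymocytes (n = 3) and isotype total thymocytes (n = 4), anti-DLL4 DN cells (n = 3) and isotype DN cells (n = 3), and anti-DLL4 DN1 cells (n = 3) and isotype DN1 cells (n = 2). DN cells were sorted as lacking CD4 and CD8, and DN1 cells as the part of them with CD44 and without CD25, so DN1 cells are also contained in the DN gate and no gate removed NK or B cells, as far as the labels say. The description counts 4 animals per antibody and 3 isotype thymocyte samples where the labels give 4. Nothing ties a sample to an animal, so the p-values below measure only the spread between these samples.

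Klr receptors let natural killer cells and some T cells sense major histocompatibility complex (MHC) class I and related stress molecules. Klra genes encode the Ly49 receptors, most of them inhibitory and some activating, which a cell switches on in varied combinations. Klrd1 encodes CD94, the partner chain of the NKG2 proteins, and Klrc1 encodes NKG2A, the inhibitory one, which with CD94 reads the class Ib molecule Qa-1. Klrk1 encodes NKG2D, an activating receptor for stress-induced ligands. Thymocytes on the main route of T cell development carry little of these receptors.

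The probes of 7 of the 8 genes are printed here because the Ly49 genes are near-identical copies, and the probe sequence decides which copy a signal can come from. Each is the brighter 60-base probe of its gene, 5′ to 3′, and the capitals mark the longest run of bases that it shares exactly with any probe of another Klr gene on the array. Positions are those of the mm8 build in the scanner files, and the probe of Klra16 is not placed on that build and is not printed.
Klra8, chr6:130087838-130090769, minus strand, 14 bases shared with Klra2: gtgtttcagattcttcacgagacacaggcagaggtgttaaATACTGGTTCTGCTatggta
Klra9, chr6:130151228-130151287, minus strand, 17 bases shared with Klra6: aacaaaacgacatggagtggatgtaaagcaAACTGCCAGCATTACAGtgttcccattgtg
Klra10, chr6:130245001-130245060, minus strand, 11 bases shared with Klra23: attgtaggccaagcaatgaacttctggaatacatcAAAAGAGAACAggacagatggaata
Klrc1, chr6:129641066-129642871, minus strand, 8 bases shared with Klra2: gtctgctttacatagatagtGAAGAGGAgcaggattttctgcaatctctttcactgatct
Klrd1, chr6:129564066-129564125, plus strand, 8 bases shared with Klra10: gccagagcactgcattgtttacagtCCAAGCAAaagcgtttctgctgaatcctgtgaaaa
Klre1, chr6:129545756-129547699, plus strand, 9 bases shared with Klrc3: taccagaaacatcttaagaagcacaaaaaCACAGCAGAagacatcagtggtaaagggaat
Klrk1, chr6:129578157-129578446, minus strand, 9 bases shared with Klra21: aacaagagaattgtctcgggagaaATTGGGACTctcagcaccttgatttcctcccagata

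A position longer than 60 bases (Klra8, Klrc1, Klre1, Klrk1) means that the probe is split on the genome, as across an intron. The annotation lists no RefSeq transcript for the brighter Klrk1 probe and lists the Klrk1 transcript for the second. The exact runs shared between Klr probes were short, at most 17 of 60 bases for Klra9. With mismatches allowed, the Klra8 probe matched a Klra2 probe at 43 of 56 aligned bases. The Klra16 probe matched a Klra5 probe at 37 of 50. Probes were compared with probes and not with whole transcripts, so short runs do not show that a probe reads 1 copy. The array's own annotation also lists a 2nd transcript for 2 of the probes, 1 of Klra21 for the Klra9 probe and 1 without a current symbol for the Klra8 probe. A probe of Klra3, which is no member, lists transcripts of Klra10 and Klra9 besides Klra3 and Klra6. Signals of Klra copies may therefore be shared, and the Klra genes below are not independent measurements. A transcript of Klra1 is listed only for the probe named Klra22, together with transcripts of Klra4 and of 2 copies that have no current symbol, so Klra1 itself has no level here.

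A level below is log2 of the deposited processed signal minus the 75th percentile of that array's non-control spots, so 0 is a fairly bright probe and each unit is a doubling. Levels are set side by side within a probe only. Differences are anti-DLL4 minus isotype, from 1 limma model of all 18 arrays, and are given with their SE relative to the median of all tested probes. That median was -0.42 in thymocytes, -0.65 in DN cells and -0.03 in DN1 cells. Array strength differed: the 75th percentile ran from 260.2 to 4295.4 over the 18 arrays, and all 3 anti-DLL4 DN arrays (741.3 to 1076.8) were brighter than all 3 isotype DN arrays (260.2 to 675.5). From 59.9% to 84% of spots were well above background. Genes of the sort markers were read as a check of the gates. Cd44 averaged 2.05 in anti-DLL4 DN1 cells, 1.90 in anti-DLL4 DN cells and 2.77 in anti-DLL4 thymocytes. It averaged 2.73 in isotype DN1 cells, 0.35 in isotype DN cells and 0.14 in isotype thymocytes. Within anti-DLL4, Il2ra, for CD25, averaged 0.28 in DN1 cells against 0.81 in DN cells. Within isotype it averaged -1.45 in DN1 cells against 1.24 in DN cells. Its DN1 arrays lay below its DN arrays under both antibodies, with no overlap and no call (limma adjusted p = 0.998 within anti-DLL4 and 0.133 within isotype). Cd8b1 averaged 3.84 in anti-DLL4 DN cells, 2.87 in anti-DLL4 DN1 cells and 7.90 in anti-DLL4 thymocytes. It averaged 6.97 in isotype DN cells and 6.47 in isotype DN1 cells, not far under its 8.80 in isotype thymocytes, so Cd8 transcript was present in cells sorted as lacking CD8.

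**Figure D1:**
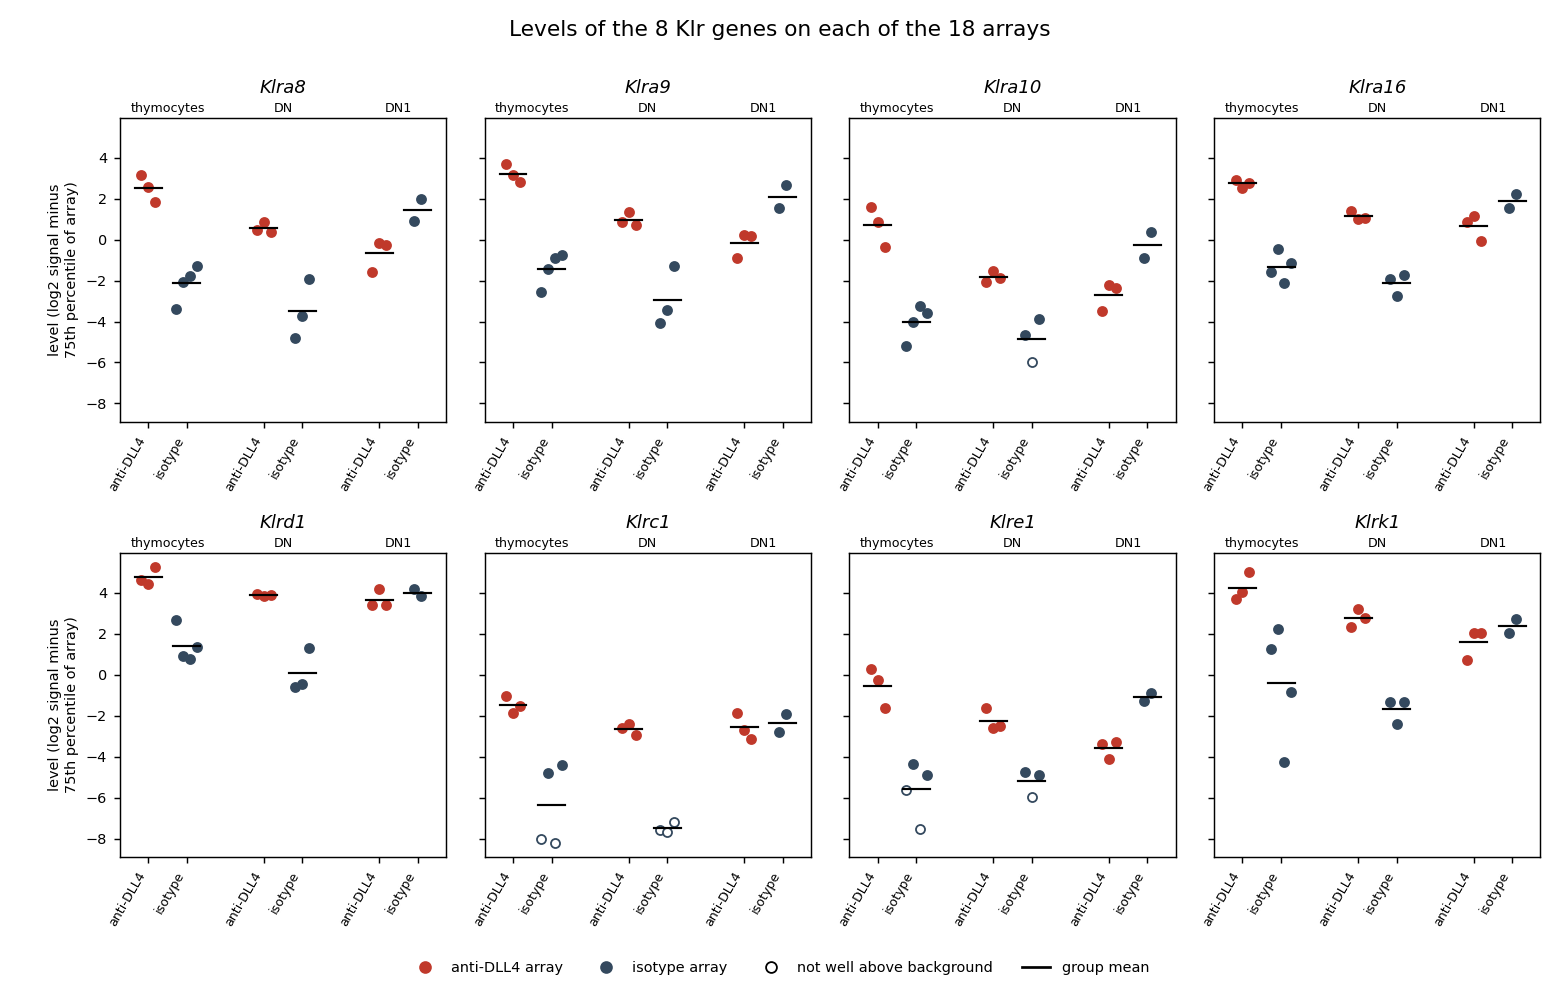
Level (vertical axis, log2 signal minus the array's 75th percentile) of the 8 Klr genes, each by its brighter probe, on every array of the 6 groups. Points are arrays, open where the probe was not well above background, and bars are group means. In thymocytes and DN cells every anti-DLL4 point lies above every isotype point for all 8 genes, while in DN1 cells the anti-DLL4 points of 6 genes lie below.

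All 8 genes were higher in anti-DLL4 than in isotype samples of thymocytes and of DN cells, with fitted differences of 3.60 to 5.50 log2 units. In DN1 cells all 8 fitted differences lay below 0, from -2.47 to -0.17. The median difference over the 8 was 5.07 in thymocytes, 4.51 in DN cells (4.21 with Klrc1 at its bound, given with that gene) and -1.64 in DN1 cells. Every anti-DLL4 array lay above every isotype array for 8 of 8 genes in thymocytes, where 4.69% of all tested probes did so, and in DN cells, where 9.7% did. In DN1 cells every anti-DLL4 array lay below both isotype arrays for 6 of 8, against 9.64% of all tested probes. The members were chosen on these values, so nothing is read from these counts and no call is given for them. For the tests of other genes below, limma called 0.925% of all tested probes higher in thymocytes and 2.33% in DN cells, at an adjusted p under 0.05. In DN1 cells it called 0.0655% lower. In whole-population RNA, more cells of a type and more RNA per cell cannot be told apart.

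Among the Ly49 receptors, Klra8 encodes Ly49H, an activating receptor that recognises a mouse cytomegalovirus protein. Its levels were 3.15, 2.56 and 1.82 in anti-DLL4 thymocytes, against -3.39, -2.08, -1.76 and -1.27 in isotype thymocytes. In DN cells they were 0.47, 0.87 and 0.37 with anti-DLL4, against -4.81, -3.75 and -1.93 with isotype. The anti-DLL4 arrays lay close together while the isotype arrays were spread, and no array of 1 antibody reached into the other's range. The order was turned in DN1 cells, with -1.60, -0.16 and -0.25 for anti-DLL4 and 0.89 and 2.00 for isotype. The differences were 5.06 ± 0.69 in thymocytes, a fold of 33.3, and 4.71 ± 0.74 in DN cells, with -2.09 ± 0.83 in DN1 cells.

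Klra9 encodes the inhibitory receptor Ly49I. It had levels of 3.69, 3.13 and 2.81 in anti-DLL4 thymocytes, against -2.58, -1.44, -0.90 and -0.77 in isotype thymocytes. DN cells had 0.84, 1.35 and 0.73 with anti-DLL4 and -4.05, -3.46 and -1.30 with isotype. In DN1 cells the anti-DLL4 values of -0.91, 0.22 and 0.19 were all below the isotype values of 1.54 and 2.65. The groups did not overlap in any population, and the differences were 5.05 ± 0.66, 4.56 ± 0.70 and -2.23 ± 0.78 in thymocytes, DN and DN1 cells. Array for array Klra9 ran almost exactly with Klra8, with a Pearson r of 0.996 over the 18 arrays, which share their scaling and their groups.

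Klra10 encodes Ly49J, another inhibitory receptor of the family. Thymocytes had levels of 1.58, 0.87 and -0.36 with anti-DLL4, against -5.22, -4.0, -3.24 and -3.57 with isotype. DN cells had -2.09, -1.51 and -1.90 with anti-DLL4, against -4.68, -6.00 and -3.90 with isotype, where the probe was not well above background on the second array. The DN1 levels were -3.51, -2.21 and -2.36 with anti-DLL4 and -0.89 and 0.36 with isotype. Again no ranges overlapped, and the differences were 5.12 ± 0.66, 3.67 ± 0.71 and -2.39 ± 0.79 in the 3 populations. Its anti-DLL4 thymocyte arrays were the more spread ones, unlike those of Klra9.

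Klra16 encodes Ly49P, a receptor described as activating in other mouse strains. Its probe read 2.90, 2.54 and 2.78 in anti-DLL4 thymocytes, against -1.57, -0.46, -2.11 and -1.15 in isotype thymocytes. The DN readings were 1.41, 1.02 and 1.07 with anti-DLL4, against -1.91, -2.76 and -1.75 with isotype. In DN1 cells the values were 0.85, 1.17 and -0.08 with anti-DLL4, under 1.55 and 2.21 with isotype. Its arrays agreed most closely within a group among the 4 Klra members, and its SEs were the smallest of the 8 genes (4.48 ± 0.49, 3.95 ± 0.53 and -1.20 ± 0.59). Which C57BL/6 transcript the probe reads is not known, since it is not placed on mm8.

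The DN1 arrays of the 2 antibodies overlapped for CD94 and its partner. Klrd1, for CD94, had levels of 4.61, 4.42 and 5.27 in anti-DLL4 thymocytes and 2.65, 0.91, 0.77 and 1.36 in isotype thymocytes. The DN levels were 3.95, 3.86 and 3.88 with anti-DLL4, within 0.1 of each other, and -0.62, -0.47 and 1.32 with isotype. In DN1 cells 3.38, 4.18 and 3.40 with anti-DLL4 enclosed 4.17 and 3.83 with isotype. The ranges were apart in thymocytes (3.77 ± 0.57) and DN cells (4.47 ± 0.61) and overlapped in DN1 cells (-0.32 ± 0.68). The sign of that last difference was lost, at 0.00, without anti-DLL4 DN1 replicate 1.

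Klrc1, for NKG2A, was well above background on every anti-DLL4 array, and on 2 of 4 isotype thymocyte, 0 of 3 isotype DN and 2 of 2 isotype DN1 arrays. Its thymocyte levels were -1.06, -1.85 and -1.54 with anti-DLL4, against -8.01, -4.78, -8.23 and -4.43 with isotype, where replicates 1 and 3 were not well above background. DN cells had -2.61, -2.42 and -2.94 with anti-DLL4, while none of the 3 isotype arrays was well above background (-7.57, -7.69 and -7.21). The fold in DN cells is therefore given as at least 8.17-fold higher, which sets the anti-DLL4 mean against the dimmest signals that count as well above background on the isotype arrays, with no shift. DN1 levels were -1.89, -2.70 and -3.13 with anti-DLL4 and -2.81 and -1.92 with isotype, which overlapped. The fitted differences were 5.30 ± 0.81 in thymocytes, where part of the isotype signal is at background and the size is uncertain, and -0.17 ± 0.97 in DN1 cells. The DN1 difference turned to 0.03 without anti-DLL4 DN1 replicate 3 and to 0.35 without isotype DN1 replicate 2.

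Klrk1, for NKG2D, had the least even isotype group. The brighter probe read 3.69, 4.05 and 5.02 in anti-DLL4 thymocytes, against 1.25, 2.21, -4.28 and -0.83 in isotype thymocytes. DN cells had 2.35, 3.21 and 2.78 with anti-DLL4 and -1.32, -2.41 and -1.33 with isotype. In DN1 cells 0.70, 2.05 and 2.02 with anti-DLL4 lay under 2.06 and 2.71 with isotype by no more than 0.01 at the nearest pair. Isotype thymocyte replicate 3 lay far under the other 3, and the differences carried the largest SEs of the 8 genes (5.09 ± 1.09, 5.11 ± 1.16 and -0.76 ± 1.30).

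The second Klrk1 probe, dimmer throughout, read -0.39, -0.28 and -3.31 in anti-DLL4 thymocytes and -8.02, -6.60, -6.22 and -4.37 in isotype thymocytes, where the first and second array were not well above background. In DN cells it read -2.40, -2.52 and -3.22 with anti-DLL4, and no isotype array was well above background, for at least 7.85-fold higher. Its DN1 levels were -2.58, -1.49 and -2.26 with anti-DLL4 and overlapped -1.89 and -0.57 with isotype. Its fitted differences were 5.40 ± 0.82 in thymocytes, with part of the isotype signal at background, and -0.85 ± 0.98 in DN1 cells, and it had the sign of the brighter probe in all 3 populations.

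Klre1 encodes a CD94-related receptor that pairs with Klri proteins, and its 2 probes disagreed. The brighter one read 0.30, -0.26 and -1.63 in anti-DLL4 thymocytes, against -5.63, -4.35, -7.53 and -4.90 in isotype thymocytes, where replicates 1 and 3 were not well above background. In DN cells it read -1.64, -2.62 and -2.50 with anti-DLL4 and -4.74, -5.97 and -4.91 with isotype, the second of these not well above background. In DN1 cells it read -3.37, -4.12 and -3.30 with anti-DLL4 and -1.27 and -0.91 with isotype. The ranges were apart in each population (5.50 ± 0.69, 3.60 ± 0.74 and -2.47 ± 0.83).

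The other Klre1 probe, placed at chr6:129550654-129550713 on the plus strand of mm8, carries a cDNA clone and no RefSeq transcript in the array annotation. It read -5.44, -4.50 and -4.02 in anti-DLL4 thymocytes, against -3.14, -3.53, -4.41 and -4.28 in isotype thymocytes. Its DN levels of -4.48, -4.60 and -4.80 with anti-DLL4 were all below -2.46, -3.20 and -3.84 with isotype. The differences were -0.39 ± 0.55 in thymocytes, -0.82 ± 0.59 in DN cells and 0.21 ± 0.66 in DN1 cells, so this probe did not show the differences of the brighter one. The statements on Klre1 rest on the brighter probe, whose annotation lists the RefSeq transcript.

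**Figure D2:**
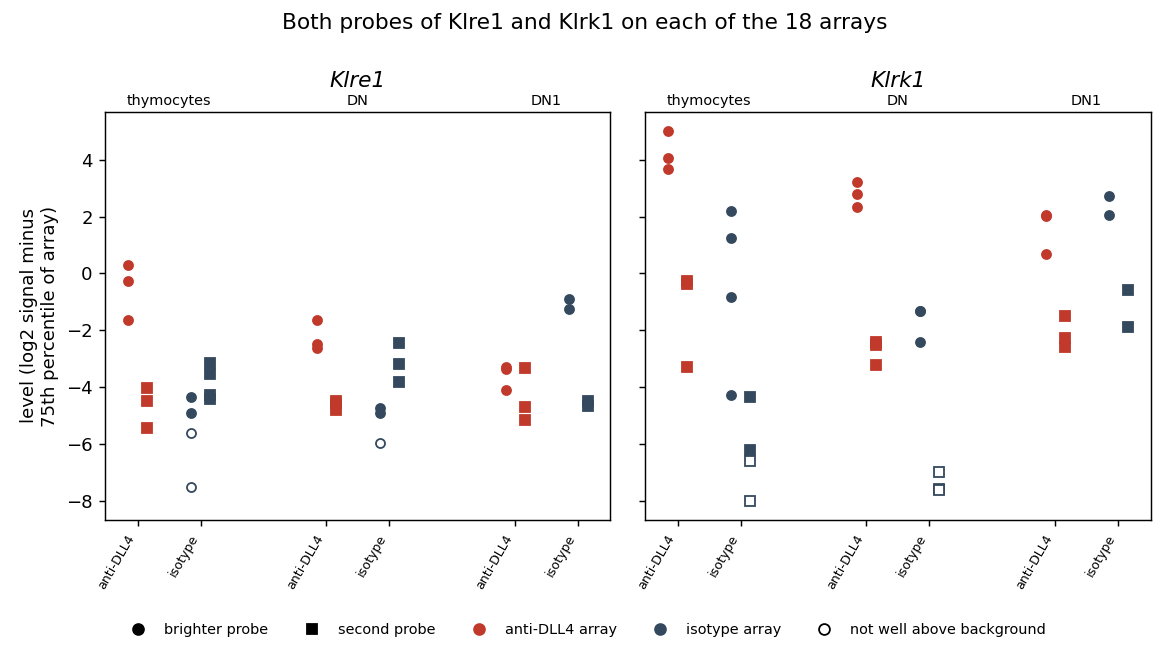
Level (log2 signal minus the array's 75th percentile) of both probes of Klre1 and Klrk1 on every array. Circles are the brighter probe and squares the second one, open where not well above background. The 2 Klrk1 probes shift together between anti-DLL4 and isotype, while the second Klre1 probe stays between -5.44 and -2.46 on all arrays.

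Set out by group, the 8 genes had nearly the same order of mean levels. Anti-DLL4 thymocytes were highest for 8 of 8 genes. Isotype DN1 cells came second for 7 genes, with Klrk1 as the exception, where anti-DLL4 DN cells came second. Anti-DLL4 DN cells and then anti-DLL4 DN1 cells followed in places 3 and 4 for 6 genes, and isotype DN cells were last for 7, with Klre1 as the exception. Neighbours in this order often did not differ beyond their spread: isotype thymocytes and isotype DN cells overlapped for 8 of 8 genes. The mean over the 8 genes was 2.36, 1.93 and 1.77 in anti-DLL4 thymocytes against -2.81, -1.75, -3.41 and -1.94 in isotype thymocytes. It was 0.19 to 0.47 in anti-DLL4 DN cells, against -4.06 to -2.63 in isotype DN cells, and -0.79 to -0.20 in anti-DLL4 DN1 cells, against 0.66 and 1.37 in isotype DN1 cells.

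Levels in the DN1 gate were also set against those of all DN cells of the same antibody. Within anti-DLL4, DN1 minus DN cells ran from -1.34 (Klre1) to 0.09 (Klrc1), with a median of -1.0. Within isotype it had a median of 5.01, or 4.75 with Klrc1 at its bound. Klrc1, not measured above background in isotype DN cells, was at least 9.99-fold higher in isotype DN1 cells, with no shift, and the other 7 genes ran from 4.59 (Klrd1) to 5.69. The isotype DN and isotype DN1 arrays did not overlap for 8 of 8 genes. The share of all tested probes that did so was not counted, so nothing is read from this. DN cells minus thymocytes gave a median of -1.71 within anti-DLL4 and -1.56 within isotype. These values share groups with the treatment differences and add no separate evidence to them.

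Slides held arrays of both antibodies in some cases, so the differences were also taken within them. In thymocytes the 8 genes were all higher with anti-DLL4 on each of slides 1, 2 and 4, with medians of 7.26, 4.56 and 4.36. In DN cells slide 3 gave 8 of 8 higher with a median of 5.44. The DN1 differences were less even, with 3 of 8 higher and a median of -0.36 on slide 3, and 0 of 8 higher and a median of -2.14 on slide 5. Each of these sets 1 array against 1. The isotype DN replicates 1 and 2 were the dimmest arrays of the series, and with both left out the median in DN cells was 2.95, against the single remaining isotype DN array, with the genes from 2.39 (Klra10) to 4.44 (Klrk1) apart from Klrc1, whose probe was not well above background on that array.

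The other Klr genes are those left in the family after the 9 were picked on these values, and they were tested. The array names 22 of them with 35 probes, and 21 entered the model, while Klra19 was too dim. For Klra12, Klra13, Klra15, Klra19, Klra20, Klra21, Klra22 and Klra23 no probe's own accession was matched to a current RefSeq symbol. Which C57BL/6 copies these probes read is not known, so the counts below are of names and not of separate genes. In thymocytes 11 of 21 rose and 0 fell, with a median difference of 4.21 and 21 of 21 above the median of all probes. In DN cells 8 of the 19 tested rose and 0 fell (1.39% of all tested probes were called lower), with a median of 2.78. With the 4 genes of each population that were not well above background on any of its isotype arrays set at their bounds, the median was 4.11 in thymocytes and 2.53 in DN cells. In DN1 cells limma called 0 of 19 and the median was -0.88. An unadjusted p under 0.05 was reached there by 3 of the 19, against 5.22% of all tested probes. Apart from Klrg1, whose probe lies at chr6:122236571-122236630, they belong to the same gene complex. In part they share transcripts with the members' probes, so they are no fully separate readout.

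In thymocytes Klra22 had the lowest adjusted p (0.000761). This is the probe whose annotation includes Klra1, the gene of the inhibitory receptor Ly49A. It read -0.40, -0.96 and -2.41 with anti-DLL4, against -6.18, -5.82, -6.81 and -5.85 with isotype, the first of these not well above background, a difference of 5.33 ± 0.56 with no overlap. In DN cells it read -2.18, -2.72 and -2.98 with anti-DLL4, no isotype array was well above background, and it was at least 8.26-fold higher (limma adjusted p = 0.00377). In DN1 cells it read -2.89, -2.70 and -3.54 with anti-DLL4, against -1.75 and -1.66 with isotype, which missed the threshold (adjusted p = 0.998).

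Klrb1a, an activating NKR-P1 receptor gene, rose in thymocytes by 4.33 ± 0.53 (adjusted p = 0.00173, limma). Its levels were 0.20, 0.55 and 1.98 with anti-DLL4, against -2.60, -3.13, -3.65 and -2.61 with isotype. A dimmer Klrb1a probe averaged -6.8 with anti-DLL4 and -7.38 with isotype, and its arrays overlapped. Klra6, for Ly49F, rose by 4.11 ± 0.55 (adjusted p = 0.00291), with 0.39, -0.06 and -0.59 with anti-DLL4, against -3.41, -4.58, -3.86 and -3.25 with isotype. Klra7, for the inhibitory Ly49G, had the lowest adjusted p in DN cells, with a difference of 5.51 ± 0.79 (adjusted p = 0.00318). There it read 2.14, 1.36 and 1.75 with anti-DLL4, against -2.88, -4.64 and -1.84 with isotype. Klra15 rose in DN cells by 6.29 ± 0.93 (adjusted p = 0.00351), but its second isotype array, at -7.45, was not well above background. The other Klra15 probe had 3.33 ± 0.77 there and missed the threshold (limma adjusted p = 0.0636). Not every copy rose. Klra13 and Klra17 had DN differences of -0.91 and -0.89, and Klra4, for the activating Ly49D, had -2.28 in DN cells and 4.60 ± 1.51 in DN1 cells (adjusted p = 0.527). Klra4 read 1.59, -2.62 and -3.44 in anti-DLL4 DN1 cells, against -5.18 and -6.94 in isotype DN1 cells, so its spread was wide.

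**Figure D3:**
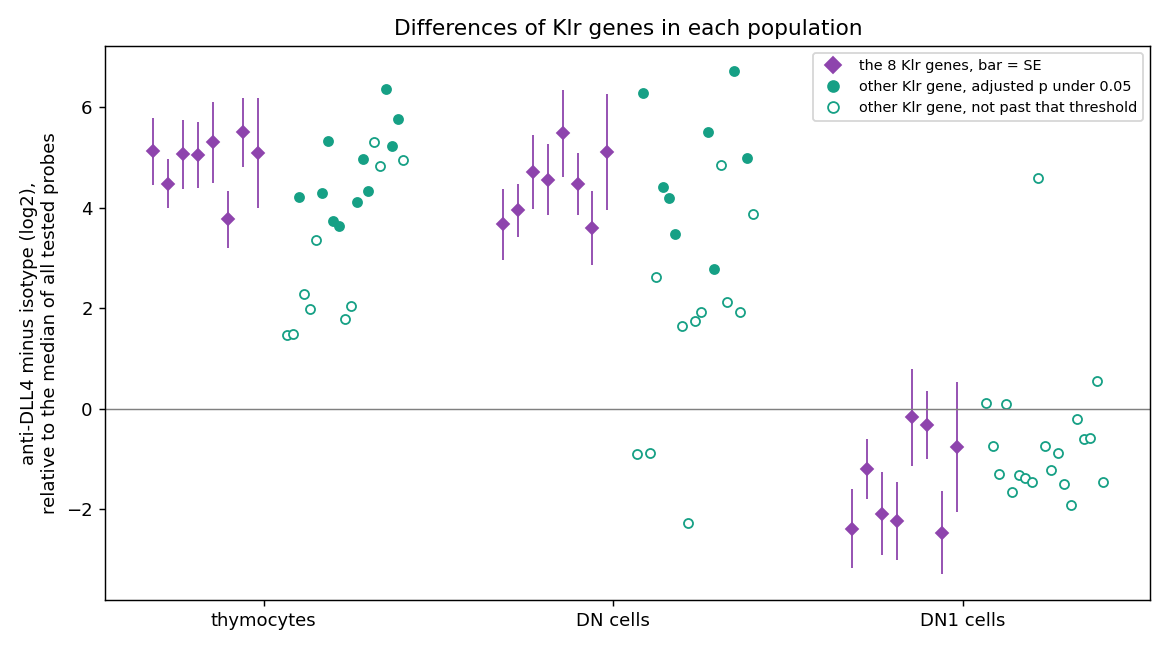
Difference anti-DLL4 minus isotype (vertical axis, log2, relative to the median of all tested probes) of the Klr genes in each population. Diamonds are the 8 chosen genes with their SE, at their fitted values also where isotype signal was at background (Klrc1 in DN cells), circles are the other Klr genes, filled where limma's adjusted p was under 0.05. In thymocytes all points lie above 0, in DN cells 3 of the tested other Klr genes lie below it, and in DN1 cells no circle is filled.

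These counts of other Klr genes moved with single arrays. In thymocytes the 11 fell to 6 without anti-DLL4 replicate 1 and to 7 without anti-DLL4 replicate 2, isotype replicate 1 or isotype replicate 3. In DN cells the 8 fell to 5 without anti-DLL4 replicate 1 and to 4 without anti-DLL4 replicate 2, anti-DLL4 replicate 3 or isotype replicate 2. With both dimmest isotype DN arrays left out it was 2, with slide as a block 4, and with another background correction (normexp) 2. The between-population test was passed by few. The anti-DLL4 effect was lower in DN1 cells than in thymocytes for Klra22 (-6.63 ± 0.87, adjusted p = 0.0139), Klrb1a (-5.82 ± 0.83, adjusted p = 0.0154) and Klra6 (-5.33 ± 0.85, adjusted p = 0.0393), all limma. It was lower in DN1 than in DN cells for Klra22 (-5.50 ± 0.89, adjusted p = 0.0489), a size that rests on isotype DN signal below background. By the probe that stands for each gene, no other passed of the 21 tested against thymocytes and the 19 tested against DN cells. Of all tested probes, 0.0735% were called lower in DN1 cells against thymocytes and 0.0919% against DN cells. A second probe of Klra3, the one that lists Klra10 and Klra9 transcripts too, also passed against thymocytes (-6.88 ± 0.93, adjusted p = 0.0139).

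Within isotype mice, 6 of 19 other Klr genes were higher in DN1 than in DN cells and 0 were lower, where 0.918% of all tested probes were called higher. They were Klra7 (6.35), Klra15 (7.06), Klra21 (5.08), Klra23 (5.11), Klrb1a (4.08) and Klra22, which was at least 15.6-fold higher, with no shift, since no isotype DN array was well above background. Their limma adjusted p-values were 0.00458 to 0.0149. Other probes of these genes were less even. That of Klra7 passed too (limma adjusted p = 0.00279), while that of Klra15 missed the threshold (3.85, adjusted p = 0.0978). That of Klra23 had 0.08 (adjusted p = 0.803). That of Klrb1a was dim and averaged -7.26 in isotype DN1 and -6.29 in isotype DN cells. Within anti-DLL4 mice limma called 0 of 19, with 1 at an unadjusted p under 0.05, and 0 of all 35175 tested probes.

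Other genes were grouped in 5 lists of 74 genes with a probe, 4 lists of genes of NK cells and 1 of the ligands that Klr receptors read on other cells. In thymocytes 10 of 72 tested rose and 0 fell, in DN cells 20 of 73 rose and 0 fell, and in DN1 cells 0 rose and 1 fell. Without the ligands 9 of 59 rose in thymocytes and 16 of 59 in DN cells. The transcription factors that natural killer cells rely on gave 0 of 11 in thymocytes, where 4 had an unadjusted p under 0.05 (14.6% of all tested probes did), and a median of 0.33. Id2, an inhibitor of E proteins that all innate lymphocytes need, came nearest there (4.17 ± 0.90, limma adjusted p = 0.0584). In DN cells 2 of 11 rose, Zeb2 by 4.25 ± 0.71 (adjusted p = 0.0101) and Id2 by 4.38 ± 0.97 (adjusted p = 0.0435). Id2 read 4.33, 4.74 and 3.70 in anti-DLL4 DN cells, against -1.33, 0.57 and 2.30 in isotype DN cells. In DN1 cells 0 of 11 passed and Zeb2 had the lowest p (2.30 ± 0.79, adjusted p = 0.594), with 2 at an unadjusted p under 0.05.

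Among 16 genes of adaptors and signalling in NK cells, not all of them activating, 0 passed in thymocytes (6 at an unadjusted p under 0.05) and 6 rose in DN cells. Lat2 came first in thymocytes (3.38 ± 0.86, adjusted p = 0.112). In DN cells Syk, a kinase downstream of activating adaptors, rose by 4.82 ± 0.58 (adjusted p = 0.000953), and so did the phosphatase gene Inpp5d (3.25 ± 0.48, adjusted p = 0.00657). B cells express both of these as well. Tyrobp encodes DAP12, the adaptor of activating Ly49 receptors, and rose by 4.16 ± 0.61 (adjusted p = 0.00507). Its DN levels were 3.69, 3.93 and 3.81 with anti-DLL4, against -1.30, 0.60 and 1.57 with isotype. In DN1 cells the adaptor gene Sh2d1a fell by 4.47 on the log2 scale (SE 0.70, limma adjusted p = 0.0289), to -1.24, -2.86 and -2.28 with anti-DLL4, against 2.12 and 2.64 with isotype. T cells use Sh2d1a as well, and the call was lost without either isotype DN1 array, without anti-DLL4 DN1 replicate 2 or 3, and under 5 other settings, with 0 genes called in each.

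The ligands of Klr receptors were measured in the same cells. In thymocytes 1 of 13 tested rose, Cdh1, whose E-cadherin is read by the Klrg1 receptor (5.38 ± 1.14, limma adjusted p = 0.0475). In DN cells 4 of 14 rose, all of them MHC class I genes. H2-T23, which encodes the Qa-1 that CD94 with NKG2A reads, rose by 3.32 ± 0.62 (adjusted p = 0.0268), to 6.37, 6.50 and 5.96 with anti-DLL4, against 2.14, 3.61 and 5.06 with isotype. H2-D1 rose by 3.30 ± 0.64 (adjusted p = 0.0315) and H2-K1, a Ly49 ligand, by 3.11 ± 0.60 (adjusted p = 0.0332). H2-M3, another class I gene, rose by 3.05 ± 0.59 (adjusted p = 0.0345). Class I genes are expressed by most cell types. In DN1 cells 0 of 13 passed, with 1 at an unadjusted p under 0.05, and Ulbp1, an NKG2D ligand, had the lowest p (3.49 ± 0.98, adjusted p = 0.352).

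Of the 17 other NK surface receptors, 3 of 16 tested rose in thymocytes and 3 of 16 in DN cells. Il18r1, for the interleukin-18 receptor, rose in both, by 5.19 ± 0.79 (adjusted p = 0.00667) and 4.75 ± 0.84 (adjusted p = 0.0138). Il2rb, for the shared interleukin-2 and interleukin-15 receptor chain, rose in both too, by 2.92 ± 0.55 (adjusted p = 0.0371) and 3.09 ± 0.59 (adjusted p = 0.0314). Its thymocyte levels were 5.58, 5.51 and 6.15 with anti-DLL4, against 3.88, 3.57, 3.22 and 2.32 with isotype. The third gene was Cd226 in thymocytes (3.00 ± 0.49, adjusted p = 0.0185) and Slamf7 in DN cells (7.66 ± 1.54, adjusted p = 0.0199), whose probe was not well above background on 2 isotype DN arrays. In DN1 cells 0 of 17 passed, with 3 at an unadjusted p under 0.05, and Cd27 had the lowest p (-3.12 ± 0.78, adjusted p = 0.217).

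Of 16 effector genes, the cytotoxic granule and cytokine genes of NK and killer T cells, 6 rose in thymocytes, where the list median was 2.61. Gzmb, for granzyme B, rose by 4.53 ± 0.54 (adjusted p = 0.0014), Fasl by 5.50 ± 0.76 (adjusted p = 0.00297) and Gzmc by 5.37 ± 0.80 (adjusted p = 0.00617). In DN cells 5 of 16 rose, first Gzmc (7.33 ± 0.85, adjusted p = 0.000468), Gzmb (4.79 ± 0.57, adjusted p = 0.000908) and the chemokine gene Xcl1 (6.47 ± 1.02, adjusted p = 0.00507), all limma. The others were Fasl (4.78 ± 0.81, adjusted p = 0.00999) and the chemokine gene Ccl5 (3.51 ± 0.70, adjusted p = 0.0346). Gzmb read 3.52, 3.66 and 3.17 in anti-DLL4 DN cells, against -0.83, -0.98 and -0.26 in isotype DN cells. In DN1 cells it read 2.49, 4.07 and 3.11 with anti-DLL4, around 3.85 and 3.57 with isotype. Its DN1 effect was below its DN effect by the test of that difference (-5.24 ± 0.86, adjusted p = 0.0495). In DN1 cells 0 of 16 passed, with 1 at an unadjusted p under 0.05, and Gzmc had the lowest p (3.41 ± 0.96, adjusted p = 0.349).

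The counts over the 5 lists also rested on single arrays. The 10 of thymocytes fell to 4 without anti-DLL4 replicate 2, to 5 without anti-DLL4 replicate 3 and to 6 without anti-DLL4 replicate 1, isotype replicate 2 or isotype replicate 3. The 20 of DN cells fell to 7 without anti-DLL4 replicate 1, anti-DLL4 replicate 3 or isotype replicate 1, to 8 without isotype replicate 2 and to 11 without anti-DLL4 replicate 2. With both dimmest isotype DN arrays left out it was 1, and with slide as a block 6.

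Markers of other cells moved as well. Of 10 B cell genes, 7 rose in thymocytes (median 4.03), 9 rose in DN cells (median 5.07) and 0 passed in DN1 cells (median 0.96, 1 at an unadjusted p under 0.05). Their mean level was 1.26 to 2.69 in anti-DLL4 thymocytes, against -2.02 to -1.21 in isotype thymocytes, and 3.90 to 4.50 in anti-DLL4 DN cells, against -0.64 to 0.11 in isotype DN cells. In DN1 cells it was 3.91 to 4.21 with anti-DLL4, against 2.51 to 3.63 with isotype. Of 14 T cell genes 0 passed in thymocytes (median -0.60, 3 at an unadjusted p under 0.05), 2 fell in DN cells (Ptcra and Tcf7, median -1.16) and 0 passed in DN1 cells (median -2.27, 9 at an unadjusted p under 0.05). The B cell mean was higher on every anti-DLL4 array in DN1 cells as well, though 0 of the 10 genes passed there. The part of both lists in the differences of the Klr genes was not tested.

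Erythroid genes moved with the isotype DN arrays. Their mean level was -5.19 to -3.24 in anti-DLL4 DN cells, against 0.38, 1.74 and -2.97 on isotype DN replicates 1, 2 and 3, so it was high on the 2 dimmest arrays of the series. None of 5 tested passed in DN cells by limma, with 5 at an unadjusted p under 0.05 and a median of -3.60. In thymocytes their mean was -1.29 to 0.98 with anti-DLL4, against -2.06 to -1.05 with isotype, and in DN1 cells -3.04 to -1.65 with anti-DLL4, against -4.78 to -3.56 with isotype. In both 0 passed, with 2 and 1 at an unadjusted p under 0.05.

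Of 7 genes of gamma-delta and innate-like T cells, Cxcr6 rose in thymocytes (4.90 ± 0.48, adjusted p = 0.000761, limma), where the list mean was 1.92 to 2.49 with anti-DLL4, against 0.68 to 1.21 with isotype. In DN cells Cxcr6 (3.47 ± 0.51) and Blk (4.23 ± 0.59), a gene that B cells express too, rose. The list as a whole did not rise there, with a median of 0.37 and 4 of 7 genes above the median of all probes. Of 9 monocyte and macrophage genes, Ccr2, Adgre1 and Csf1r rose in DN cells, by 3.52 ± 0.66, 4.59 ± 0.92 and 3.94 ± 0.88, and Ccr2 in thymocytes (5.14 ± 0.62). The monocyte and macrophage differences in DN cells ran from -3.89 to 4.59, with a median of 1.11. Of 10 dendritic cell genes, Irf8 (4.41 ± 0.49) and Itgax (4.66 ± 0.93) rose and Ccr9 (-2.73 ± 0.88) fell in DN cells, and 0 passed in thymocytes, with 3 at an unadjusted p under 0.05. NK cells also express Itgax and Cxcr6. In DN1 cells 0 genes of these 3 lists passed by limma, with 1 in each at an unadjusted p under 0.05. The part of these lists in the differences of the Klr genes was not tested.

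**Figure D4:**
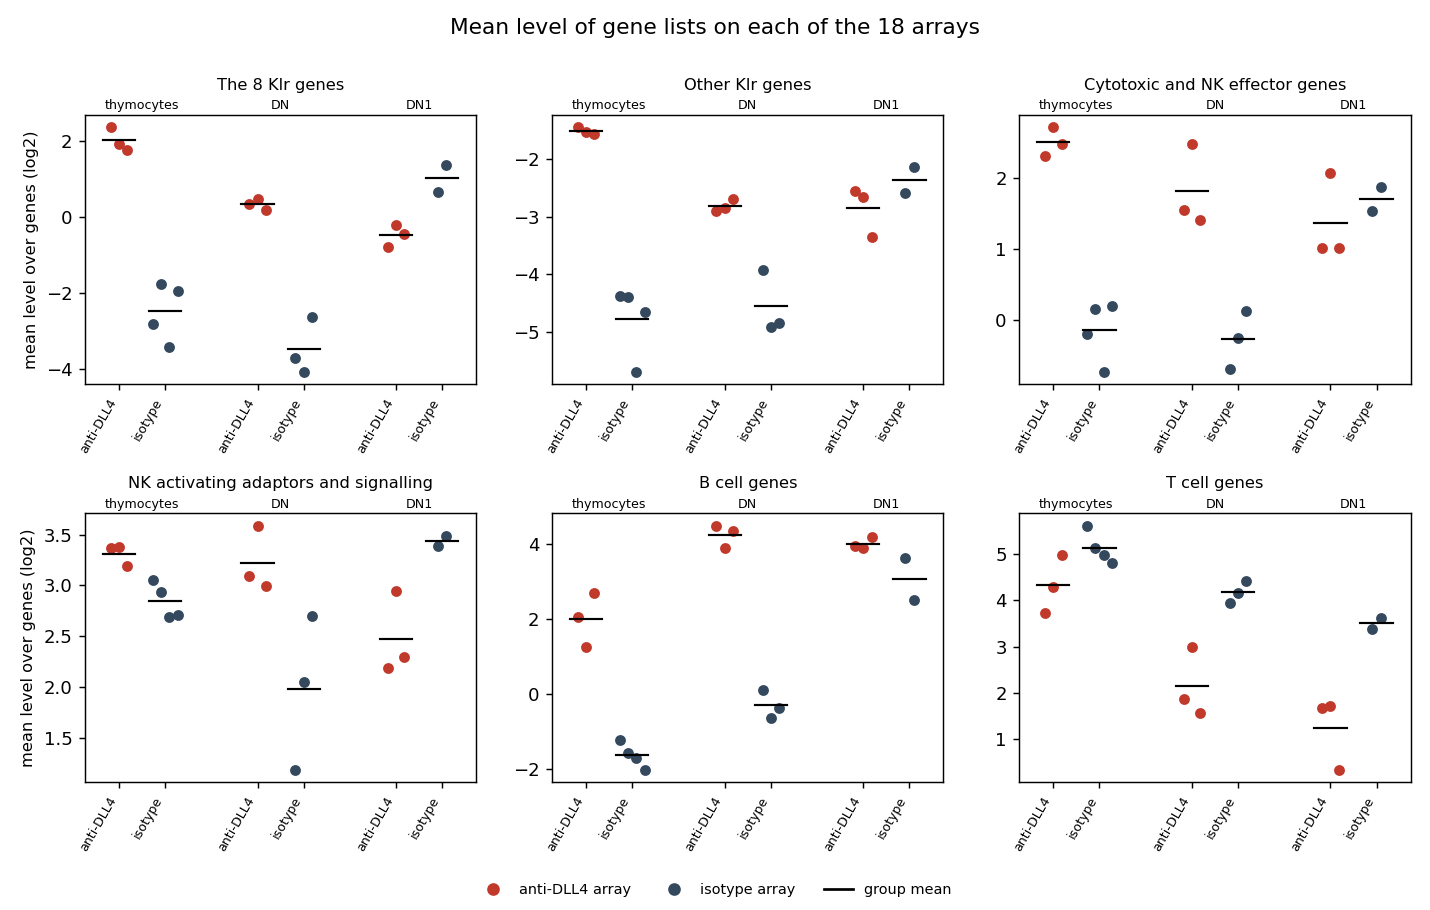
Mean level over the genes of 6 lists (vertical axes, log2, each panel with its own range) on every array. Points are arrays and bars are group means. The Klr panels and the effector panel show anti-DLL4 above isotype in thymocytes and DN cells. In DN1 cells the 8 Klr genes lie lower with anti-DLL4 (-0.79 to -0.20, against 0.66 and 1.37), while B cell genes lie higher.

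The genes whose levels ran most like the mean of the 8 over the 18 arrays were S100a6, a calcium-binding protein gene (Pearson r = 0.977), Ms4a4b (0.959), Klra7 (0.946), Fasl (0.939), Fgl2 (0.939), Upb1 (0.939), Klrc2 (0.935) and Klra22 (0.934). S100a6 read 5.40, 5.35 and 5.48 in anti-DLL4 thymocytes, against 0.93, 1.95, 0.83 and 1.91 in isotype thymocytes. In DN1 cells it read 3.43, 4.28 and 3.13 with anti-DLL4, close to 4.15 and 4.36 with isotype. Its r exceeds those of the named Klr genes, but the arrays share groups and scaling, so these values describe likeness only. Between the members themselves r ran from 0.725 (Klra10 and Klrk1) to 0.996.

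Promoters of the 9 named genes were looked up in RefSeq (build GRCm38.p6), as 300 bases around the annotated start. They were found for Klra1, which has no level here, and for Klra8, Klra9, Klra10, Klre1, Klrk1 and Klrc1. They were searched on both strands for TGTGGT, letters bound by RUNX proteins, and TCACAC, letters of T-box proteins. The RUNX letters were in 16.8% of 32851 promoters and the T-box letters in 14.5%. Klra8, Klra9 and Klra10 held neither, though they ran almost together on the arrays, and no match says only that these letters are not in the window. Klra1 and Klre1 held both, and Klrk1 and Klrc1 held the RUNX letters, with no match overlapping another. The promoters of the 3 measured genes with a match are printed on the gene's strand, with the matches in capitals.
Klre1, chr6:129577963-129578262, plus strand: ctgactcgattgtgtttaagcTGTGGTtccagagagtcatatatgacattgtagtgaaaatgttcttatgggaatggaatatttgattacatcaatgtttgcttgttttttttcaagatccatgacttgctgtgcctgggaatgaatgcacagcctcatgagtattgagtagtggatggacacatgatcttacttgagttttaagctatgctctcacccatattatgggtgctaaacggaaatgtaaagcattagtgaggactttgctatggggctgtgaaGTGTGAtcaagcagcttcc
Klrk1, chr6:129623815-129624114, minus strand: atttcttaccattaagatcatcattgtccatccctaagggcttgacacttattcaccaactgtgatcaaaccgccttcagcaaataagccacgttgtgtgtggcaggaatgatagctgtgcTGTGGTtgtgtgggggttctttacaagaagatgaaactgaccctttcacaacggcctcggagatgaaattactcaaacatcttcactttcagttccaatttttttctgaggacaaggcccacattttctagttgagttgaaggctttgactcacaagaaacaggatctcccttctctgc
Klrc1, chr6:129678924-129679223, minus strand: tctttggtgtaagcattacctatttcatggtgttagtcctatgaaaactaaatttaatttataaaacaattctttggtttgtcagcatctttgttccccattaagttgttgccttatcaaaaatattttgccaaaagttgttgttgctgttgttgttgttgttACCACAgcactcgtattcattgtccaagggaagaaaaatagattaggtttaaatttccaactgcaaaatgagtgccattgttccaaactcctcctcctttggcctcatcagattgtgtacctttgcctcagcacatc
A match describes the letters and is not a shown binding site.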

How the data were processed

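The 18 Agilent 1-colour arrays were deposited by the authors as scanner output, in which each of 44954 spots holds a Cy3 intensity, background-subtracted by Agilent Feature Extraction 9.5.3.1 per the file headers (9.5 per the submitters' processing notes). RNA was amplified in 2 rounds, per the labels. Positions are mm8. A deposited series table holds a ratio per probe, with its scale, centring and direction not stated, and served as an alternative only. From the intensities, log2 values minus each array's 75th percentile of non-control spots were computed, outlier spots were dropped and spots of 1 probe were averaged. The deposited flags of 0 or 1 gave the spots well above background.

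The model, with limma 3.58.1 (R 4.3.3), took the 38962 probes that were well above background on 2 or more of the 18 arrays and gave each group its own mean. A comparison tested those that met this on 2 or more of its own arrays, two-sided, with calls at an adjusted p (Benjamini-Hochberg) under 0.05. Differences are shown relative to the median of all tested probes, and calls come from the unshifted values. Intervals rest on the number of arrays, which limits the precision. The fit was tested on simulated data. A gene stands for its probe with the highest mean. For 29 of 45 Klr probes the accession was matched in RefSeq (GRCm38.p6).

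The members and lists were chosen with earlier results of these data known. Named were all members, up to 3 called genes of lowest adjusted p per list and comparison (otherwise the 1 of lowest p), and the 8 genes most like the members' mean among probes well above background on at least 9 arrays. Klra13, Klra17, Klra4 in DN cells, H2-M3, Ccl5, Fasl in DN cells, the genes of B, T and other cell types, the isotype DN1 against DN calls and the sort markers Cd44, Il2ra and Cd8b1 were named after their values were seen. Replicate numbers did not pair the samples. A result of the cell type lists is not reported here.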

Additional observations from a re-analysis of the deposited data

Results flagged for a closer look

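Among the 4 isotype thymocyte arrays, the only group large enough for a check of lone values, 2 of 42 probes had an array far from the others, and chance gives about 5% of such checks. Il18r1 read -3.88 on isotype thymocyte replicate 2 while the other 3 lay between -1.0 and -0.43, a gap of 0.834 of the range. Gzmc read -3.45 on isotype thymocyte replicate 1 while the other 3 lay between -1.92 and -1.67, a gap of 0.859 of the range. Both were well above background on these arrays.

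For 6 of the 8 Klr genes every anti-DLL4 array was above every isotype array in thymocytes and DN cells and below both isotype arrays in DN1 cells. Taken 1 population at a time, 4.69%, 9.7% and 9.64% of all tested probes did so, and the share with all 3 was not counted. Klrk1 was counted with 2.05 as its highest anti-DLL4 DN1 level and 2.06 as its lowest isotype one. Its other probe overlapped in DN1 cells. The DN1 differences were -2.39 for Klra10, -1.20 for Klra16, -2.09 for Klra8, -2.23 for Klra9, -2.47 for Klre1 and -0.76 for Klrk1. The genes were chosen on these values, so nothing is read from the count of 6. The difference between populations was not tested for them, here or on other samples. The DN1 differences rest on 2 isotype arrays, and on slide 3 alone 3 of 8 genes were higher with anti-DLL4.

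Other genes passed a test of the difference between populations, by limma with Benjamini-Hochberg adjustment. The anti-DLL4 effect in DN1 cells minus that in DN cells was -5.50 for Klra22 (adjusted p = 0.0489), with isotype DN signal below background, and -5.24 for Gzmb (adjusted p = 0.0495). The effect in DN1 cells minus that in thymocytes was -6.63 for Klra22 (adjusted p = 0.0139), -5.82 for Klrb1a (adjusted p = 0.0154) and -5.33 for Klra6 (adjusted p = 0.0393). The comparisons share the DN1 arrays.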

How the results depend on the processing

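The signs of the median difference of the 8 Klr genes stayed the same in each population under the 11 other settings and with each array left out. Some settings (filters on dim probes, 1 probe per gene, the 2 groups only) change only the subtracted median, so the sign says little there. In thymocytes the median of 5.07 was 3.57 with normexp background and 4.58 to 5.52 with 1 array left out. In DN cells the 4.51 was 3.41 with normexp, 2.95 with both isotype DN replicates 1 and 2 left out (a setting chosen after seeing the data) and 3.92 to 5.25 with 1 array left out. In DN1 cells the -1.64 ranged from -2.14 to -1.12. Single differences that turned were in DN1 cells, Klrd1 (-0.71 to 0.00 with 1 array left out) and Klrc1 (-0.67 to 0.35). Counts moved more. Other Klr genes called higher in thymocytes (11) were 7 on a fit of the 2 groups only and 6 to 11 with 1 array left out, and genes of the NK and ligand lists (10) were 2 and 4 to 12. In DN cells the 8 other Klr genes were 2 with normexp, 4 with slide as a block, 5 with a gene's probes averaged, 1 on the 2 groups only, 2 without both dim arrays and 4 to 9 with 1 left out (lower calls 0 to 1). The 20 genes of the NK and ligand lists were 6 with slide as a block, 7 on the 2 groups only, 1 without both dim arrays and 7 to 25 with 1 left out (lower calls 0 to 2, and 1 with quantile normalization). The 1 gene called lower in DN1 cells became 2 with quantile normalization and 0 with normexp, slide as a block, the replicate block, probes averaged, the 2 groups only, or (range 0 to 1) with 1 array left out. The causes were not tested. Within a population, same-numbered anti-DLL4 and isotype samples did not deviate together (correlations of -0.47 to 0.06). With the replicate block the medians were 5.34, 4.51 and -1.68, with 9 and 6 other Klr genes and 8 and 18 genes of the NK and ligand lists called higher in thymocytes and DN cells. Signal near background limits Klrc1, Klra22 and the second Klrk1 probe in isotype DN cells, where only bounds can be given.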
